A study of Homo sapiens with 2 samples.

Results

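The 9 genes described here encode parts of the desmosome and the adherens junction, the belts and spots that hold neighbouring epithelial cells together. They were taken by symbol from the deposited table of A549 cells, a human lung adenocarcinoma line, and all 9 were found among its 13137 genes. DSG2, DSC2, DSP, JUP, PKP2 and PKP3 belong to the desmosome, and CTNNA1, CTNND1 and MLLT4 (now named AFDN) belong to the adherens junction. The table compares 2 libraries of 1 sample each, and the study made it to look for genes that depend on the transcription factor SOX2. One library came from A549-H1tetO-shRNA-SOX2 cells and the other from A549-H1tetO-shRNA-Con cells with a scrambled hairpin. Both lines are puromycin-selected polyclones made with a lentivirus that carries the hairpin behind a doxycycline-inducible H1 promoter, and only a single hairpin against SOX2 was used. Both were collected after 4 days with doxycycline, so the control cells had the same drug.

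In a desmosome, the cadherins desmoglein and desmocollin bind the neighbouring cell, plakoglobin and the plakophilins sit on their tails, and desmoplakin ties the whole to keratin filaments. In an adherens junction, classical cadherins bind p120 catenin and beta-catenin, and alpha-catenin links them to actin. Nectins form a second adhesion system there, which afadin anchors to actin. Plakoglobin is shared between both kinds of junction.

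Tags on genes numbered 2304184 for shRNA-Con and 2093816 for the library labelled shRNA-SOX2. The value columns carry only abbreviations, and their assignment to the conditions rests on initials. SOX2 itself gave 16 tags in the control library and 23 in the library labelled for its hairpin (Fisher's exact test, adjusted p = 0.333), so the target had no fewer tags there, and the directions given here are those of the labels. Of the markers of lung epithelial lines, KRT8 gave 7702 and 12729 tags, KRT18 had 10318 and 7887, and EPCAM had 8 and 4 (shRNA-Con first). The markers of fibroblasts found (3 of 7) summed to 46 and 54 tags, those of endothelium (1 of 5) to 3 and 0, and those of leukocytes (4 of 6) to 15 and 21.

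With 1 library per condition no difference has a replicate check. A gene's share of all gene tags was therefore set against its share in the other library by Fisher's exact test (two-sided), p-values were adjusted over all genes (Benjamini-Hochberg), and FDR 0.001, the threshold of the study, was used for calls. What is compared is a pair of libraries, not the conditions. All intervals are at 95% and hold counting error alone.

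The junction genes moved in both directions. DSG2, MLLT4 and CTNNA1 fell, JUP and CTNND1 rose, and the other 4 did not pass the threshold. The 3 of 9 genes that fell stand beside 12.2% of all genes called lower, and the 2 of 9 that rose beside 9.53% called higher. Since more tags make a call easier, the same was counted among genes whose tags summed to at least 100. Of the 6 junction genes that reached this, 3 fell and 2 rose, against 22.5% and 16.6% of all such genes. By size alone, 3 of the 9 (PKP2, DSG2 and MLLT4) were at least 2-fold lower and 2 (DSC2 and JUP) at least 2-fold higher, against 13.0% and 10.4% of the 10045 genes with at least 20 tags. The median log2 fold change was 0.19 over the 9 genes and -0.10 over the 10045. In a culture, fewer cells with a transcript and less of it per cell cannot be told apart.

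**Figure D1:**
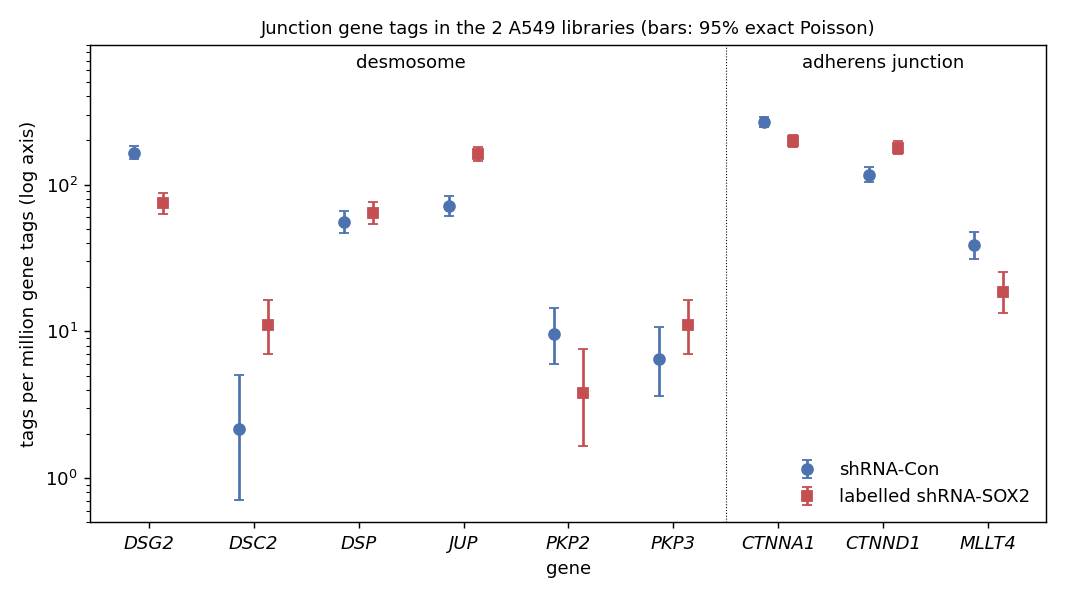
CPM, tags per 1000000 gene tags, on a log axis, of the 9 genes in the shRNA-Con library (circles) and the library labelled shRNA-SOX2 (squares), with 95% exact Poisson intervals. The intervals of DSG2, JUP, CTNNA1, CTNND1 and MLLT4 do not overlap between the libraries, nor do those of DSC2, while those of DSP, PKP2 and PKP3 do. For all genes this was not counted, so it is not known whether the 9 differ from other genes in this.

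The promoters of the 3 called genes with the largest fold changes in size are shown, JUP among the genes that rose and DSG2 and MLLT4 among those that fell. RefSeq promoters (GRCh38.p14) matched 6 of the 9 genes (not PKP2, PKP3 and CTNND1), and the 250 bases before each start were searched on both strands. The capitals mark the E-box CACCTG or its reverse CAGGTG, the element that SNAI and ZEB proteins bind. DSG2 is shown at chr18:31497927-31498176 on the plus strand, MLLT4 at chr6:167827385-167827634 on the plus strand, and JUP at the second of its starts, chr17:41785977-41786226 on the minus strand.
DSG2: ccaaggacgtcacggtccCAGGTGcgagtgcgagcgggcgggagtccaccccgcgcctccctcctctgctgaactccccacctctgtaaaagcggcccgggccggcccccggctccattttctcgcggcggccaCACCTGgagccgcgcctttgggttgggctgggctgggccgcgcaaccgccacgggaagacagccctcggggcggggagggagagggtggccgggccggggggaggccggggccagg
MLLT4: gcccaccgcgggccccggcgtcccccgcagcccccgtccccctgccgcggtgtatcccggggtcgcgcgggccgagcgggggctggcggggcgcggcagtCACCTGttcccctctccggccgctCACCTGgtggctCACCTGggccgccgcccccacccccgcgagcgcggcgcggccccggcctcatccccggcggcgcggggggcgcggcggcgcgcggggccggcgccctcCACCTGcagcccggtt
JUP: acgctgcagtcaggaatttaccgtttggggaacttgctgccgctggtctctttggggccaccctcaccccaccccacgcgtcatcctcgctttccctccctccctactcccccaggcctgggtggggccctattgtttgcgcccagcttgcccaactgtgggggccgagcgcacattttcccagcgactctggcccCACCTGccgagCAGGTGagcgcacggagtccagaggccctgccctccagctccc

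The E-box was found before at least 1 start of 5 of the 6 genes (DSG2, DSC2, DSP, JUP and MLLT4), and before a start of 20.6% of the 27305 genes with a promoter. DSG2 holds 2 of them and MLLT4 holds 4, the last of which begins 16 bases before the start. JUP holds 2 at the start shown and 0 at its first. The window of MLLT4 is 84.8% G and C, that of DSG2 75.2% and that of JUP 66%. Genes that fell and genes that rose both hold the motif, and CTNNA1, which fell, does not. The GC box GGGCGG was present in all 6 matched genes and in 46.2% of all. The SOX motif CATTGT (11.2% of all genes), AACCGGTT of the GRHL factors (0.143%), TGANTCA of AP-1 (8.06%) and GGAATG of TEAD factors (14.3%) were in 0 of the 6.

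The desmosomal cadherins DSG2 and DSC2 differed in their fold changes. DSG2 (Entrez Gene ID 1829), the desmoglein found in most epithelia that have desmosomes, gave 381 tags in the control library, against 156 in the library labelled shRNA-SOX2, or 165 and 74.5 CPM (tags per 1000000 gene tags). This was a 2.22-fold lower level, with a log2 fold change of -1.15 (interval -1.43 to -0.88; Fisher's exact test, adjusted p = 5.11e-17). DSC2 (Entrez Gene ID 1824), the desmocollin that usually accompanies it, gave 5 and 23 tags. Its log2 fold change was 2.34 (interval 0.91 to 4.09), and its adjusted p of 0.00102 in Fisher's exact test was just short of the threshold. With TMM factors, a scaling that trims extreme genes, it was 0.000844 and DSC2 was past it.

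In the RefSeq annotation the desmosomal cadherin genes lie in a row on chromosome 18, with DSC3, DSC2, DSC1, DSG1, DSG4, DSG3 and DSG2 as neighbours among protein-coding genes. DSC3, a desmocollin of stratified epithelia, gave 4 and 21 tags (Fisher's exact test, adjusted p = 0.00101), and DSG3, the antigen of pemphigus vulgaris, gave 3 and 6 tags (Fisher's exact test, adjusted p = 0.465). Of the 4 cadherins of the row that were analysed, DSG2 at one end was lower in tags and the other 3 were higher. Those 3 had few tags and did not pass the threshold by gene tags, so no pattern along the row is shown. The ratio of the fold changes of 2 genes does not depend on how the libraries are scaled. For DSC2 over DSG2 it was 11.2 (interval 4.06 to 38.3), and for DSC3 over DSG2 12.8 (interval 4.21 to 52.0).

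JUP (Entrez Gene ID 3728) encodes plakoglobin, which links the tails of desmosomal cadherins to desmoplakin and can also take the place of beta-catenin at adherens junctions. It gave 165 tags in the control library, against 341 in the library labelled shRNA-SOX2, or 71.6 and 163 CPM. JUP rose 2.27-fold, a log2 fold change of 1.19 (interval 0.91 to 1.46; Fisher's exact test, adjusted p = 9.79e-18). DSP (Entrez Gene ID 1832) encodes desmoplakin, the plakin that reaches the keratin filaments. Its 129 and 134 tags gave a ratio of 1.14 (interval 0.89 to 1.47; Fisher's exact test, adjusted p = 0.430), and this depth could not detect a change inside that range. Plakoglobin and desmoplakin differed from the desmoglein by more than counting error. The ratio of fold changes was 5.05 for JUP over DSG2 (interval 3.85 to 6.63), 2.54 for DSP over DSG2 (1.85 to 3.48) and 1.99 for JUP over DSP (1.45 to 2.73).

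The plakophilins, armadillo proteins of the desmosomal plaque, had few tags. PKP2 (Entrez Gene ID 5318), the plakophilin of simple epithelia and heart muscle, gave 22 tags in the control library, against 8 in the library labelled shRNA-SOX2. The log2 fold change was -1.32 (interval -2.70 to -0.10; Fisher's exact test, adjusted p = 0.0681). PKP3 (Entrez Gene ID 11187) had 15 and 23, a log2 fold change of 0.75 (interval -0.25 to 1.80; Fisher's exact test, adjusted p = 0.256). Neither passed the threshold. Set against each other, the fold change of PKP3 was 4.22 times that of PKP2 (interval 1.34 to 13.8).

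The summed tags of the 6 desmosome genes were close in both libraries, with 717 and 685 tags (311 and 327 CPM, a ratio of 1.05). Their makeup differed. The share of these tags that came from DSG2 was 53.1% in shRNA-Con (Clopper-Pearson interval 49.4% to 56.8%) and 22.8% in the library labelled shRNA-SOX2 (19.7% to 26.1%). For JUP the share was 23.0% (19.98% to 26.3%) and 49.8% (46.0% to 53.6%). These shares are compared between libraries and not between genes. DSP held 18.0% and 19.6% of them, with intervals that overlap.

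**Figure D2:**
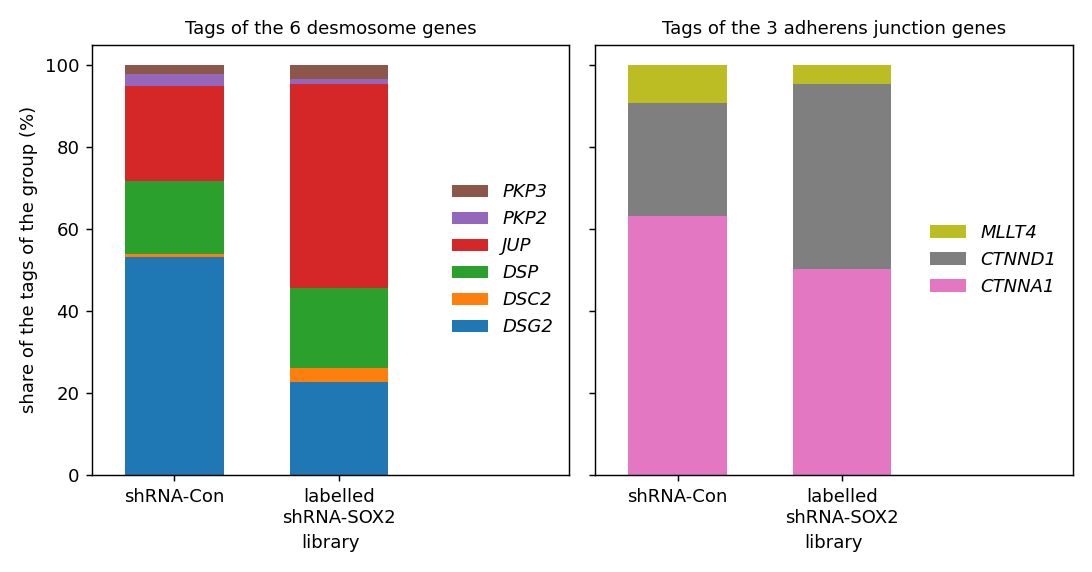
Share of tags (%) of each gene within the 6 desmosome genes (left) and within the 3 adherens junction genes (right), 1 stacked bar per library. DSG2 made up 53.1% of the desmosome tags under shRNA-Con but 22.8% in the library labelled shRNA-SOX2, and JUP 23.0% and 49.8%.

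At the adherens junction alpha-catenin and p120 catenin went opposite ways. CTNNA1 (Entrez Gene ID 1495) encodes alpha-catenin, which carries the load from cadherins to actin. It gave 616 tags in the control library, against 416 in the library labelled shRNA-SOX2 (267 and 199 CPM), and fell by 0.43 on the log2 scale (interval -0.61 to -0.25; Fisher's exact test, adjusted p = 1.88e-05). CTNND1 (Entrez Gene ID 1500) encodes p120 catenin, which holds cadherins at the cell surface by shielding them from endocytosis. It gave 270 and 373 tags (117 and 178 CPM) and rose 1.52-fold, a log2 fold change of 0.60 (interval 0.37 to 0.84; Fisher's exact test, adjusted p = 1.13e-06). Relative to alpha-catenin, p120 catenin rose by a ratio of fold changes of 2.05 (interval 1.67 to 2.51).

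MLLT4 (Entrez Gene ID 4301) encodes afadin, the actin-binding scaffold of the nectins. It gave 89 tags in the control library, against 39 in the library labelled shRNA-SOX2 (38.6 and 18.6 CPM), a 2.07-fold lower level. Its log2 fold change was -1.05 (interval -1.63 to -0.49; Fisher's exact test, adjusted p = 0.000448). With TMM factors its adjusted p was 0.00159 and with the median ratio over genes, another scaling, 0.00122, both short of the threshold, so this call depended on the scaling. The fold changes of MLLT4 and DSG2 could not be told apart by counting (DSG2 over MLLT4 0.934, interval 0.604 to 1.46). Of the 975 and 828 tags of the 3 adherens junction genes, CTNNA1 held 63.2% (60.1% to 66.2%) and 50.2% (46.8% to 53.7%), CTNND1 27.7% (24.9% to 30.6%) and 45.0% (41.6% to 48.5%), and MLLT4 9.13% (7.39% to 11.1%) and 4.71% (3.37% to 6.38%). None of these pairs of intervals overlap.

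Over all 36 pairs of the 9 genes, the interval of the ratio of fold changes left out 1 in 26 pairs, without correction for their number. The pairs share genes and are not independent. Pairs of other genes were not counted, so it is not known whether the number is particular to the junction genes.

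**Figure D3:**
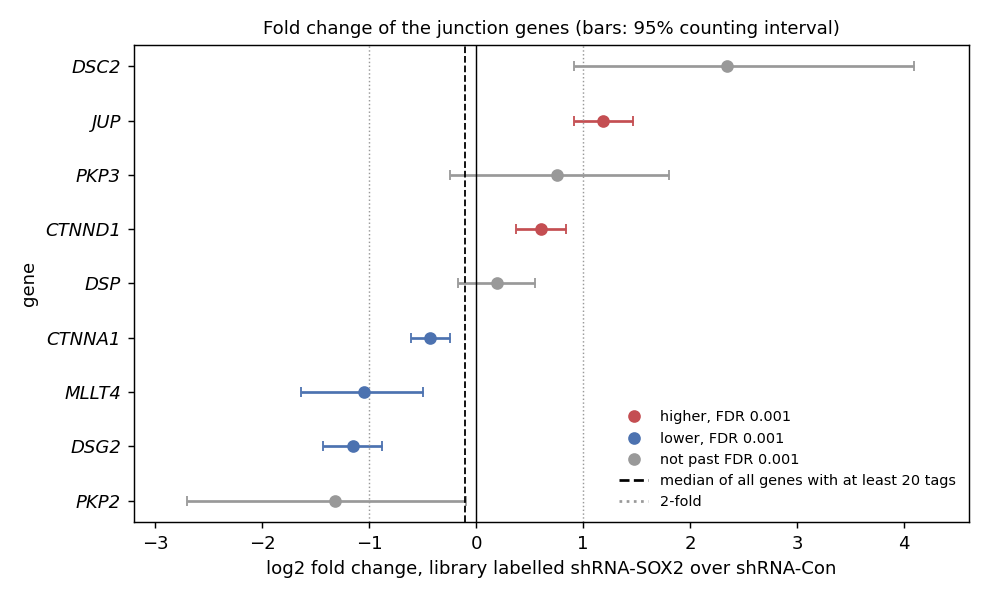
Log2 fold change of the 9 genes, of the library labelled shRNA-SOX2 relative to shRNA-Con, with 95% counting intervals and the median of all genes with at least 20 tags (dashed, -0.10). DSG2, MLLT4 and CTNNA1 lie to the left and JUP and CTNND1 to the right, past FDR 0.001, and PKP2 and DSC2 lie beyond 2-fold without passing it.

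Neither of the classical cadherins CDH1 and CDH2 passed the threshold. CDH1, E-cadherin, the main cadherin of epithelia, had 50 tags in each library, a ratio of 1.10 (interval 0.73 to 1.66; Fisher's exact test, adjusted p = 0.796). CDH2, N-cadherin, had 97 and 69 (ratio 0.783, interval 0.57 to 1.08; Fisher's exact test, adjusted p = 0.225). CTNNB1, beta-catenin, the close relative of plakoglobin and also the effector of WNT signalling, gave 193 and 266 tags and rose 1.52-fold (Fisher's exact test, adjusted p = 6.28e-05). The ratio of fold changes of CTNND1 over CTNNB1 was 1.002 (interval 0.780 to 1.29). JUP rose more than CTNNB1, by a ratio of fold changes of 1.4995 (interval 1.14 to 1.97). CTNNB1 over CTNNA1 was 2.04 (interval 1.62 to 2.57).

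Besides the 3 genes above, 21 of 26 listed genes of the adherens junction were analysed, and 6 of them fell, 2 rose and 13 did not pass. Of all genes 12.2% were called lower and 9.53% higher, and of those with at least 100 tags 22.5% and 16.6%. With TMM factors or the median ratio 5 fell, and with clean tags 7 fell and 1 rose. The median of the 19 with at least 20 tags was -0.32, beside -0.10 for all genes. The 6 were JUB (ajuba), ACTN1 and ACTN4 (alpha-actinins), ZYX (zyxin), CTNNAL1 (alpha-catulin) and PVR (the poliovirus receptor, a nectin-like molecule). JUB, an alpha-catenin binding LIM protein, gave 458 and 110 tags and fell by 1.92 on the log2 scale (Fisher's exact test, adjusted p = 7.63e-43). ACTN1, which crosslinks actin at the junction, gave 1108 and 698 tags and fell by 0.53 on the log2 scale. CTNNAL1 gave 274 and 133 tags (log2 fold change -0.90) and ZYX 602 and 397 (-0.46). The smallest of these changes was that of ACTN4, which fell from 2025 to 1584 tags, 0.22 on the log2 scale. VCL, vinculin, which binds alpha-catenin under tension, gave 360 and 262 tags and did not pass (log2 fold change -0.32; Fisher's exact test, adjusted p = 0.0196).

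Of the 4 nectins analysed, whose tails bind afadin, only PVRL2 passed. PVRL2, nectin-2, gave 63 tags in the control library, against 125 in the library labelled shRNA-SOX2, and rose 2.18-fold (Fisher's exact test, adjusted p = 1.86e-06). PVRL1, nectin-1, gave 19 and 37 tags (ratio 2.14, interval 1.20 to 3.95; Fisher's exact test, adjusted p = 0.0215), PVRL4 had 5 and 21 and PVRL3 had 43 and 26 (log2 fold change -0.59), and these 3 did not pass. The ratio of fold changes was 4.53 for PVRL2 over MLLT4 (interval 2.72 to 7.57) and 4.44 for PVRL1 over MLLT4 (interval 2.17 to 9.21). PVR, which does not bind afadin, gave 363 and 177 tags and fell by 0.90 on the log2 scale (Fisher's exact test, adjusted p = 5.11e-11).

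Among the other genes of the desmosome, 7 of 11 were analysed. EVPL and PERP rose, PKP4 fell and 4 did not pass, beside 12.2% of all genes called lower and 9.53% called higher. The number that rose was 1 when scaled by clean tags (all tags of the library) and 3 with TMM factors. EVPL, envoplakin, a plakin of the desmosome and cornified envelope, gave 32 and 71 tags (log2 fold change 1.29; Fisher's exact test, adjusted p = 9.78e-05). PERP, a membrane protein that desmosomes need, gave 839 and 970 tags (log2 fold change 0.35; Fisher's exact test, adjusted p = 2.45e-06). PPL, periplakin, the partner of envoplakin, gave 32 and 19 tags (log2 fold change -0.61; Fisher's exact test, adjusted p = 0.282). PKP4, a relative of p120 catenin that is found at both junctions, gave 100 and 44 tags (log2 fold change -1.05; Fisher's exact test, adjusted p = 0.000205). Within the p120 family CTNND1 over PKP4 was 3.14 (interval 2.09995 to 4.74).

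The filaments that desmoplakin holds were also mixed. Of 7 keratin and linker genes analysed from a list of 8, KRT8 and KRT19 rose and KRT7, KRT18 and KRT80 fell. Among all genes with at least 100 tags, 22.5% were called lower and 16.6% higher. KRT8 over its partner KRT18 was 2.16 times higher in the library labelled shRNA-SOX2 (interval 2.08 to 2.25). KRT19 gave 35 and 127 tags, a ratio of 3.99. KRT7 gave 3899 and 1606 tags (log2 fold change -1.14) and KRT80 had 598 and 145 (log2 fold change -1.91).

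Of 22 tight junction genes analysed, 3 fell (TJP1, CLDN1 and PRKCZ), 2 rose (CLDN2 and CLDN12) and 17 did not pass, which is close to the 12.2% lower and 9.53% higher of all genes. With TMM factors or the median ratio 2 fell, and with clean tags 4 fell and 1 rose. TJP1, ZO-1, the scaffold that also binds alpha-catenin and afadin, gave 395 and 168 tags, a log2 fold change of -1.10. CLDN1, a sealing claudin, had 577 and 253 (-1.05), and CLDN2, the claudin of leaky pores, had 46 and 261 (2.64). PRKCZ, a polarity kinase, gave 94 and 43 tags (-0.99) and CLDN12 had 120 and 177 (0.70). Of 5 gap junction genes analysed, GJA1 (connexin 43) fell from 626 to 345 tags, 0.72 on the log2 scale, and 4 did not pass.

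**Figure D4:**
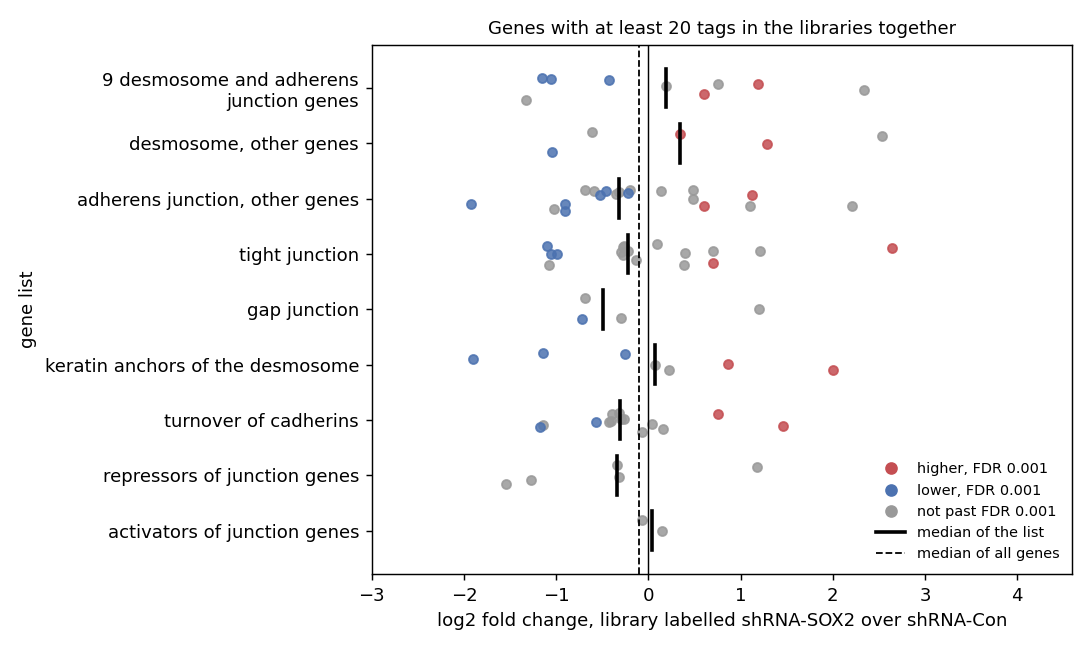
Log2 fold change of the genes with at least 20 tags in each junction list, 1 point per gene, with the median of the list (black bar) and of all genes (dashed line, -0.10). The medians of the other adherens junction genes (-0.32) and tight junction genes (-0.22) lie below it. So do those of the gap junction (-0.49), repressor (-0.34) and turnover (-0.31) genes. Those of the 9 genes (0.19), the other desmosome genes (0.35, only 5 genes), the keratin anchors (0.08) and the activators (0.04) lie above it.

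Of the repressors of junction genes 7 of 9 were analysed and none passed in either direction (0 of 7 by Fisher's exact test). ZEB1 gave 128 and 92 tags and SNAI2 had 16 and 5 (Fisher's exact test, adjusted p = 0.183 and 0.0748). TCF4 and ZEB2 were higher in tags, with 18 and 37 and with 6 and 11 (Fisher's exact test, adjusted p = 0.0139 and 0.355). The rest of the 7 were lower in tags, as ZEB1 and SNAI2 were. Of the activators 5 of 9 were analysed and 0 passed, with KLF5 at 131 and 132 tags. Among 14 genes for the turnover of cadherins MDM2 and RAB7A rose, YES1 and NCSTN fell, and 10 did not pass. With TMM factors or the median ratio only 1 of the 14 was called lower. The counts of these 3 lists stand beside 12.2% of all genes called lower and 9.53% called higher. MDM2, a ubiquitin ligase that is also a target gene and a brake of p53, gave 293 and 734 tags (log2 fold change 1.46). YES1, a SRC family kinase, had 107 and 43 (-1.18), NCSTN, a gamma-secretase subunit, 261 and 160 (-0.57), and RAB7A, of late endosomes, 366 and 560 (0.75).

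Tags of neighbouring genes can be mixed with those of 3 of the 9. In the GENCODE release 29 annotation exons of DSG2 overlap the antisense gene DSG2-AS1, those of CTNNA1 overlap LRRTM2 and another gene on the opposite strand, and those of CTNND1 overlap the read-through gene TMX2-CTNND1 and another gene on the same strand. CTNNA1 also has a processed pseudogene, CTNNA1P1. How shared tags were counted is not given in the sources used here, and the part of these genes in the values was not tested.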

How the data were processed

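Per Entrez Gene ID, the authors deposited raw counts of digital gene expression tags, from oligo(dT)-purified mRNA profiled at the Beijing Genomics Institute, 1 library per condition. The submitters' processing notes name the build hg19, and the aligner and annotation are not given in the sources used here. The deposited TPM divides counts by the clean tags of the library (3516266 in the control and 3456233 in the library labelled shRNA-SOX2), with 0 tags written as 0.01. Deposited columns of log2 ratio, p-value and FDR hold the authors' own comparison and were not used.

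Log2 fold changes use the total of gene tags, with counts below 3 set to 3, and 3 tags, a one-sided limit for a count of 0 that lies below the upper bound of the two-sided intervals, are 0.000130% of the control's gene tags and 0.000143% of the other's. Calls use Fisher's exact test, adjusted over all 13137 genes (Benjamini-Hochberg). Intervals are Clopper-Pearson, or exact conditional ones for ratios of fold changes. Alternatives were TMM factors, the median ratio, clean tags, at least 10 tags, 0.5 added to counts, edgeR's exact test at an assumed coefficient of variation, the Audic and Claverie test, FDR 0.05 and a minimum fold change. Named were the 9 genes, the list genes past FDR 0.001, except 1, and a few defining genes. PVRL3, PVRL4, DSC3, DSG3, ZEB1, SNAI2, TCF4, ZEB2 and KLF5 were chosen after their values were seen. The members and lists were chosen with earlier results of these data known. Only the calls by Fisher's exact test and the Audic and Claverie test were tried on simulated counts, which had no spread between cultures. Python 3.11.15, scipy 1.17.1, R 4.3.3, edgeR 4.0.16 and DESeq2 1.42.0 (size factors) were used. Protein sequences were not used here. The values of 1 further annotated gene are not reported here.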

Additional observations from a re-analysis of the deposited data

How the results depend on the processing

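No paired analysis was possible because there is a single library on each side, so none could be left out either. The 9 log2 fold changes kept their direction under every alternative run, which is a weak check. Another test, a minimum of tags or an assumed spread leaves a fold change as it is, and a scaling moves all genes alike. That of DSP, the smallest in size, went from 0.19 to 0.08 with clean tags. Calls moved most with an assumed spread between cultures, given as a coefficient of variation, which is 0 in Fisher's exact test. With edgeR's exact test and 0.1, 1 of the 9 genes was called lower (DSG2) and 1 higher (JUP), with 1166 genes in all. With 0.2 the calls were 0 lower and 0 higher of the 9, and 113 genes in all. At an unadjusted p under 0.05 were 4 of the 9 and 2481 of all 13137 genes. With 0.4 the calls were 0 lower, 0 higher and 0 in all, with 0 of the 9 and 627 of all genes at an unadjusted p under 0.05. These libraries do not show which value applies. A log2 fold change of at least 1 left 1 member called higher (JUP), 2 lower and 1570 genes in all, and FDR 0.05 gave 4902 in all. TMM factors and the median ratio each gave 2 lower and 3 higher, as MLLT4 lost its call and DSC2 gained one, and a minimum of 10 tags, which leaves fewer genes to adjust over, also added DSC2. Clean tags kept 3 lower and 2 higher. They moved the median of all genes with at least 20 tags from -0.10 to -0.22 and that of the 9 genes from 0.19 to 0.08, and the share of lower calls over all genes from 56.1% to 66.6%. With TMM factors that share was 49.4%, and with an assumed coefficient of 0.2 it was 42.5%. In the other junction lists, an assumed coefficient of 0.2 left 0 calls among the desmosome, adherens junction and gap junction genes and 1 among the tight junction genes. Depth limits PKP2, PKP3 and DSC2, with 8 to 23 tags in the library labelled shRNA-SOX2.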

Other observations

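The deposited Gene Ontology component column names the desmosome for 14 further genes and the adherens junction for 40. Calls among them stand beside 12.2% of all genes called lower and 9.53% called higher. Of the 14, EVPL and PERP rose, PKP4 and B4GALT1 fell, and 10 did not pass FDR 0.001. B4GALT1, a galactosyltransferase of the Golgi that is also found at the cell surface, gave 635 tags in the control library, against 179 in the library labelled shRNA-SOX2. The log2 fold change was -1.69 (Fisher's exact test, adjusted p = 1.19e-49). The median of the 11 with at least 20 tags was 0.08.

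Of the 40 adherens junction genes, 3 rose (PTPRK and SDCBP among them), 4 fell (WTIP, TJP1, MYH9 and ZYX) and 33 did not pass, and the median of the 33 with at least 20 tags was -0.13. PTPRK, a receptor tyrosine phosphatase that binds catenins, gave 100 tags in the control library and 188 in the other (log2 fold change 1.05), and SDCBP, the adaptor syntenin, had 410 and 639 (log2 fold change 0.78). WTIP, an ajuba family LIM protein like JUB, gave 73 and 21 tags (log2 fold change -1.66; Fisher's exact test, adjusted p = 5.15e-06). MYH9, the heavy chain of nonmuscle myosin, had 288 and 174 (-0.59).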
